A study of Rattus norvegicus with 4 samples.

Results

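The Slc25 family are mostly carriers of the inner mitochondrial membrane, and its members were taken as all genes whose single platform symbol begins with Slc25a. They numbered 40 of the 14217 genes that the arrays named, and 34 of them lay above a floor signal of 91.5 in at least 1 array. RNA of whole rat mammary gland had been hybridised to 4 Affymetrix arrays, with 1 array for each group. The groups were the Sprague-Dawley rat (SDR) at lactation day 1, the heterozygous and the homozygous Hirosaki hairless rat (HHR), each at lactation day 1, and SDR at involution day 1. HHR is a hairless mutant strain, so the heterozygous group carries 1 mutant allele and both SDR groups are of the strain without it. The labels give neither the animals' ages, nor how many animals gave RNA to an array, nor how long lactation had lasted before involution. Since each group rests on a single array, no spread between replicates and no test can be given, and only the sizes of differences are described. All of the 11 luminal epithelial markers were above the floor in every array.

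Most carriers of this family move a metabolite, nucleotide, cofactor or ion between the cytosol and the mitochondrial matrix, many of them by exchange of substrates. In a lactating gland the citrate carrier Slc25a1 matters for milk fat, because citrate made in the mitochondrion is exported and cleaved in the cytosol to give acetyl-CoA for fatty acid synthesis. Other members supply the matrix with ADP and phosphate, shuttle reducing equivalents, or move amino acids, iron and cofactors.

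The promoters of the 6 carriers that stood at least 2-fold lower in involution are shown, in the order in which the genes are described. The sequences are those of RefSeq on GRCr8, run 5′ to 3′ on the gene's strand from 250 bases before to 50 bases after its start, and capitals mark the CCAAT box and the GC box (GGGCGG) on either strand. The windows of Slc25a1, Slc25a10 and Slc25a29 are chr11:96559804-96560103 on the plus strand, chr10:106264146-106264445 on the plus strand and chr6:133517148-133517447 on the minus strand. Those of Slc25a15, Slc25a33 and Slc25a16 are chr16:76336620-76336919 on the plus strand, chr5:165502924-165503223 on the minus strand and chr20:25714958-25715257 on the minus strand.
Slc25a1: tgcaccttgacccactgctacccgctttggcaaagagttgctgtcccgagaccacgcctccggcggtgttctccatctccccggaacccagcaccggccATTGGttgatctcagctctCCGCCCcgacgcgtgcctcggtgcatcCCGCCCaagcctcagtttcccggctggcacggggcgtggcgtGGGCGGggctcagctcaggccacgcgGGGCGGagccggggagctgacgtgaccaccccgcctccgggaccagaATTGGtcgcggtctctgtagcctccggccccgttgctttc
Slc25a10: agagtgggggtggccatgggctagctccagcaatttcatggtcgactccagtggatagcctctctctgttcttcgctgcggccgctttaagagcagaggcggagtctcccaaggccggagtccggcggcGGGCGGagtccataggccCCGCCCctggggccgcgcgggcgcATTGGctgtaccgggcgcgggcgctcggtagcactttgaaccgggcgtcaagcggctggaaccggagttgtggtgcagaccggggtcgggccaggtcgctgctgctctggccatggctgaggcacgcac
Slc25a29: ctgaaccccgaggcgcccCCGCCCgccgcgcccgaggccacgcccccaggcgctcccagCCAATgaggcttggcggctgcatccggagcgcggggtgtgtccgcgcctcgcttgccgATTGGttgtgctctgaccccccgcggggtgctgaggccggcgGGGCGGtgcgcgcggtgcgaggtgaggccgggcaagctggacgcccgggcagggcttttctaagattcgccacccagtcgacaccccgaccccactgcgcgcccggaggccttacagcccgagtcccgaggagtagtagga
Slc25a15: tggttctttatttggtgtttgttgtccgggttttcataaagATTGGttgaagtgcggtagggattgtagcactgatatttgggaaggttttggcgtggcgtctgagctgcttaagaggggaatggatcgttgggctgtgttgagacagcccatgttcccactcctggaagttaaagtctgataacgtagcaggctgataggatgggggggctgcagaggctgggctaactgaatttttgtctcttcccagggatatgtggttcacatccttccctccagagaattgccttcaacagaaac
Slc25a33: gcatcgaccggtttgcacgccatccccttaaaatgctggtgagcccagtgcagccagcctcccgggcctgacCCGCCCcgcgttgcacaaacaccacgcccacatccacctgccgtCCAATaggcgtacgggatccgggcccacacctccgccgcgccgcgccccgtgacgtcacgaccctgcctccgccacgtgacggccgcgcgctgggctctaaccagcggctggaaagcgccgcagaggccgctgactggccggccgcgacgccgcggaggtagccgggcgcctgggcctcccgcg
Slc25a16: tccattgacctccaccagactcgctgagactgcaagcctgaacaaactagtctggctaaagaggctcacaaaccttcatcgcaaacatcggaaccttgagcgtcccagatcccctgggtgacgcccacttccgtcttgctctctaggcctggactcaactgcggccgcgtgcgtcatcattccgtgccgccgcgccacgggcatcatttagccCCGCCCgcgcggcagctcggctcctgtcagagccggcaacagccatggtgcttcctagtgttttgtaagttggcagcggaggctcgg

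The Slc25a1 window held 2 CCAAT and 4 GC boxes, that of Slc25a10 held 1 and 2, and that of Slc25a29 held 2 and 2. Slc25a33 had 1 of each, Slc25a15 had 1 CCAAT box and no GC box, and Slc25a16 had 1 GC box and no CCAAT box. Sequences were listed for 34 of the 40 carriers, 35 windows in all. A CCAAT box was in 19 of these 35 windows against 37.5% of all 33469 windows of the same length, and a GC box was in 25 of 35 against 33.1%. An E-box (CACGTG) was in 3 of 35 against 6.42%, among them Slc25a33, and in none of the other 5 shown. No window of the 6 held a Stat site (TTCNNNGAA, in 8.87% of all windows) or a sterol regulatory element (TCACNCCAC, 1.12%), nor the Nrf1 motif, which 4.25% of all windows hold. Both strands were searched for each motif. The windows shown held 48.3% (Slc25a15) to 73.7% (Slc25a29) G and C, and the shares were not set against windows of like base content. These are matches of letters and do not show that a factor binds there.

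**Figure D1:**
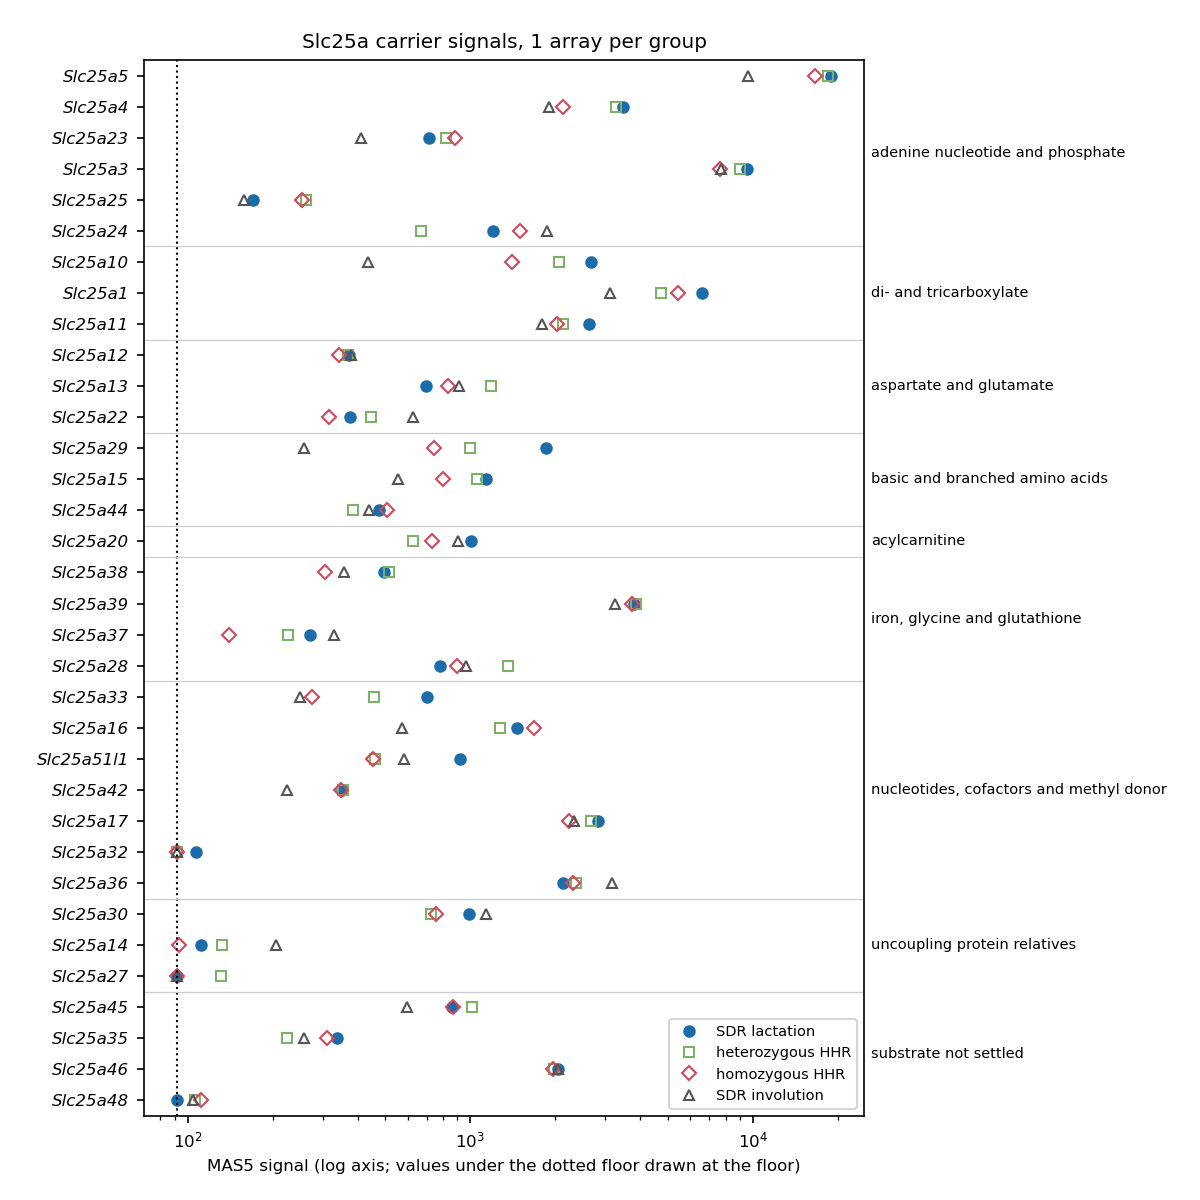
MAS5 signal of the 34 Slc25a carriers above the floor in at least 1 array, with 1 symbol for each array and carriers grouped by substrate. The axis is logarithmic and the dotted line is the floor of 91.5. The involution symbol of Slc25a10 and Slc25a29 lies far to the left of the 3 lactation symbols, while the 4 symbols of Slc25a12 and Slc25a46 nearly coincide.

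SDR involution, when the gland regresses once suckling stops, was set against SDR lactation to show which carriers differ between the secreting and the regressing gland. Among 33 measured carriers, 6 had at least 2-fold lower signal in involution and 0 had at least 2-fold higher signal. Over all 11014 genes measured in this pair the share at least 2-fold lower was 8.94% and the share at least 2-fold higher was 10.3%. The median log2 difference of the carriers was -0.28 against 0.08 for all genes, and 22 of the 33 carriers were lower by any amount, against 45.7% of all genes. The 6 lower carriers were Slc25a1, Slc25a10, Slc25a15, Slc25a16, Slc25a29 and Slc25a33. Centring each array on its median signal moved the median of all genes from 0.08 to -0.06 and turned the split of all genes from 1129 higher and 985 lower to 856 higher and 1233 lower. It gave 8 lower carriers, with Slc25a4 and Slc25a5 added, and still 0 higher.

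Carriers of di- and tricarboxylates were lower in involution in all 3 measured members. The citrate carrier Slc25a1 (probe set 1367773_at) had a signal of 6599 in SDR lactation, 4722 and 5442 in heterozygous and homozygous HHR, and 3127 at involution. It was thus highest in SDR lactation and lowest in involution, 2.11-fold lower (log2 difference -1.08). Under quantile normalization the difference was -0.96, just short of 2-fold. The dicarboxylate carrier Slc25a10 (1370020_at), which exchanges malate and succinate for phosphate, had 2668 in SDR lactation, 2057 and 1403 in heterozygous and homozygous HHR, and 434 in involution. Its involution signal was 6.14-fold below SDR lactation, and a further probe set, at 655 in SDR lactation and below the floor in involution, was at least 7.16-fold lower. The oxoglutarate carrier Slc25a11, a part of the malate-aspartate shuttle, had 2638, 2123, 2020 and 1798 in the same order of arrays. It was also lowest in involution, but by 1.47-fold. The oxodicarboxylate carrier Slc25a21 was below the floor in all 4 arrays.

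Genes on either side of citrate export were also compared. Of 14 measured genes of citrate use and fatty acid synthesis, 10 were at least 2-fold lower in involution and 1 was at least 2-fold higher, with a median log2 difference of -1.75. Acly, the lyase that cleaves exported citrate, had 22947 in SDR lactation and 6156 in involution, 3.73-fold lower, and Acaca, which makes malonyl-CoA from acetyl-CoA, had 23835 against 2191, 10.9-fold lower. The higher gene was Idh1, a cytosolic isocitrate dehydrogenase named here after its values were seen, with 10551 against 2198 and so 4.80-fold higher in involution. Within the mitochondrion Cs, the synthase that makes citrate, had 10232 against 2496, 4.10-fold lower, and 4 of 17 measured genes of the tricarboxylic acid cycle were at least 2-fold lower and 0 at least 2-fold higher (median -0.67). All 5 measured genes of pyruvate entry were lower by some amount and 3 of them at least 2-fold, among them Mpc1 and Mpc2, the subunits of the pyruvate carrier, by 4.96-fold and 2.03-fold. Among these genes, then, the difference of Slc25a1 was smaller than those of Cs, Acly and Acaca, which lie before and after it.

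Carriers of basic and branched amino acids included the member with the largest difference of the family in involution. Slc25a29 (1390483_at), which carries arginine, lysine and ornithine, had 1858 in SDR lactation, 998 and 743 in heterozygous and homozygous HHR, and 258 in involution. All 3 lactation arrays were above involution, which was 7.21-fold below SDR lactation (log2 difference -2.85). The ornithine carrier Slc25a15 had 1132, 1053, 798 and 554 in the same order, and was 2.04-fold lower in involution. Its 4 further probe sets above the floor were between 2.40-fold and 2.63-fold lower. Slc25a44, a carrier of branched-chain amino acids, had 477, 384, 508 and 440, and its 2 stages in SDR differed by 1.08-fold.

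The enzymes that use ornithine, aspartate and glutamate were at least 2-fold lower in 7 of 12 measured genes and at least 2-fold higher in 0 (median -1.13). By any amount 9 were lower and 3 higher, among these Arg1, an arginase, by 1.95-fold and Asl, which splits argininosuccinate, by 1.76-fold. Ass1, which joins citrulline to aspartate, had 4463 in SDR lactation and 232 in involution and was 19.3-fold lower. Aldh18a1, which starts proline synthesis from glutamate, was 2.86-fold lower, and Oat, which turns ornithine towards glutamate and proline, was 2.26-fold lower. None of the 3 measured carriers of aspartate and glutamate was lower in the probe set used. Slc25a12 and Slc25a13 are the calcium-regulated aspartate-glutamate carriers, and Slc25a12 had 371 in SDR lactation, 370 and 342 in heterozygous and homozygous HHR, and 377 in involution. Its signal was nearly level over the 4 arrays. Slc25a13 had 697, 1181, 837 and 911, highest in heterozygous HHR, and the glutamate carrier Slc25a22 had 376, 445, 315 and 629, highest in involution. Neither difference between the SDR stages reached 2-fold (1.31-fold and 1.68-fold higher in involution), and a weaker probe set of Slc25a13 had a log2 difference of -0.41. Slc25a18, another glutamate carrier, was below the floor in all 4 arrays.

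Of the carriers of nucleotides and cofactors, 2 of 7 measured members were at least 2-fold lower in involution. Slc25a33 (1373282_at), a pyrimidine nucleotide carrier, had 704 in SDR lactation, 455 and 276 in heterozygous and homozygous HHR, and 250.0 in involution. The homozygous HHR signal was close to that of involution, which was 2.82-fold below SDR lactation. Slc25a16, linked to coenzyme A in mitochondria, had 1467, 1275, 1682 and 571 and was 2.57-fold lower in involution, the 3 lactation arrays lying together. Slc25a42, which carries coenzyme A and adenine nucleotides, had 353, 354, 348 and 225, with the same grouping at a smaller size of 1.57-fold. Slc25a36, a second pyrimidine nucleotide carrier, went the other way, with 2123, 2371, 2309 and 3177 and the highest signal in involution (log2 difference 0.58). Its weaker probe set had a log2 difference of -0.05. Pank3, a kinase of the first step of coenzyme A synthesis, had 12406 against 982 and was 12.6-fold lower in involution, while the median of the 10 measured genes of folate, methionine and coenzyme A was 0.11.

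The adenine nucleotide and phosphate carriers that serve ATP synthesis were lower in involution but short of 2-fold. Slc25a5, an ADP/ATP translocase, had 18921 in SDR lactation, 18487 and 16632 in heterozygous and homozygous HHR, and 9605 in involution, so that the lactation arrays lay together and involution stood 1.97-fold below SDR lactation. Slc25a4, its isoform typical of muscle and heart, had 3481, 3282, 2122 and 1891, with homozygous HHR next to involution rather than to the other lactation arrays. The phosphate carrier Slc25a3 had 9501, 9021, 7625 and 7717, a narrower span of 1.23-fold between the SDR stages. All 5 measured subunits of the ATP synthase were lower in involution as well, by 1.42-fold to 1.96-fold. The outer membrane channel Vdac1 was 2.39-fold higher, and its relatives Vdac2 and Vdac3 were 1.07-fold and 1.30-fold higher. Slc25a4 and Slc25a5 are close paralogs, so either probe set may collect some signal of the other gene.

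The ATP-Mg/phosphate carriers, which are regulated by calcium and set the matrix pool of adenine nucleotides, did not share a direction. Slc25a24 had 1202 in SDR lactation, 671 and 1501 in heterozygous and homozygous HHR, and 1872 in involution, and Slc25a25 had 170, 262, 255 and 158. Slc25a24 was lowest in heterozygous HHR, and Slc25a25 was higher in both HHR arrays than in both SDR arrays. Slc25a23 had 711, 822, 885 and 412 and was 1.73-fold lower in involution, but a further probe set was above the floor in involution alone, at 205, and so at least 2.24-fold higher there. The mean of its probe sets differed by 0.12, so its direction is not settled. Slc25a31 and Slc25a41, of this class, were below the floor in all 4 arrays.

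**Figure D2:**
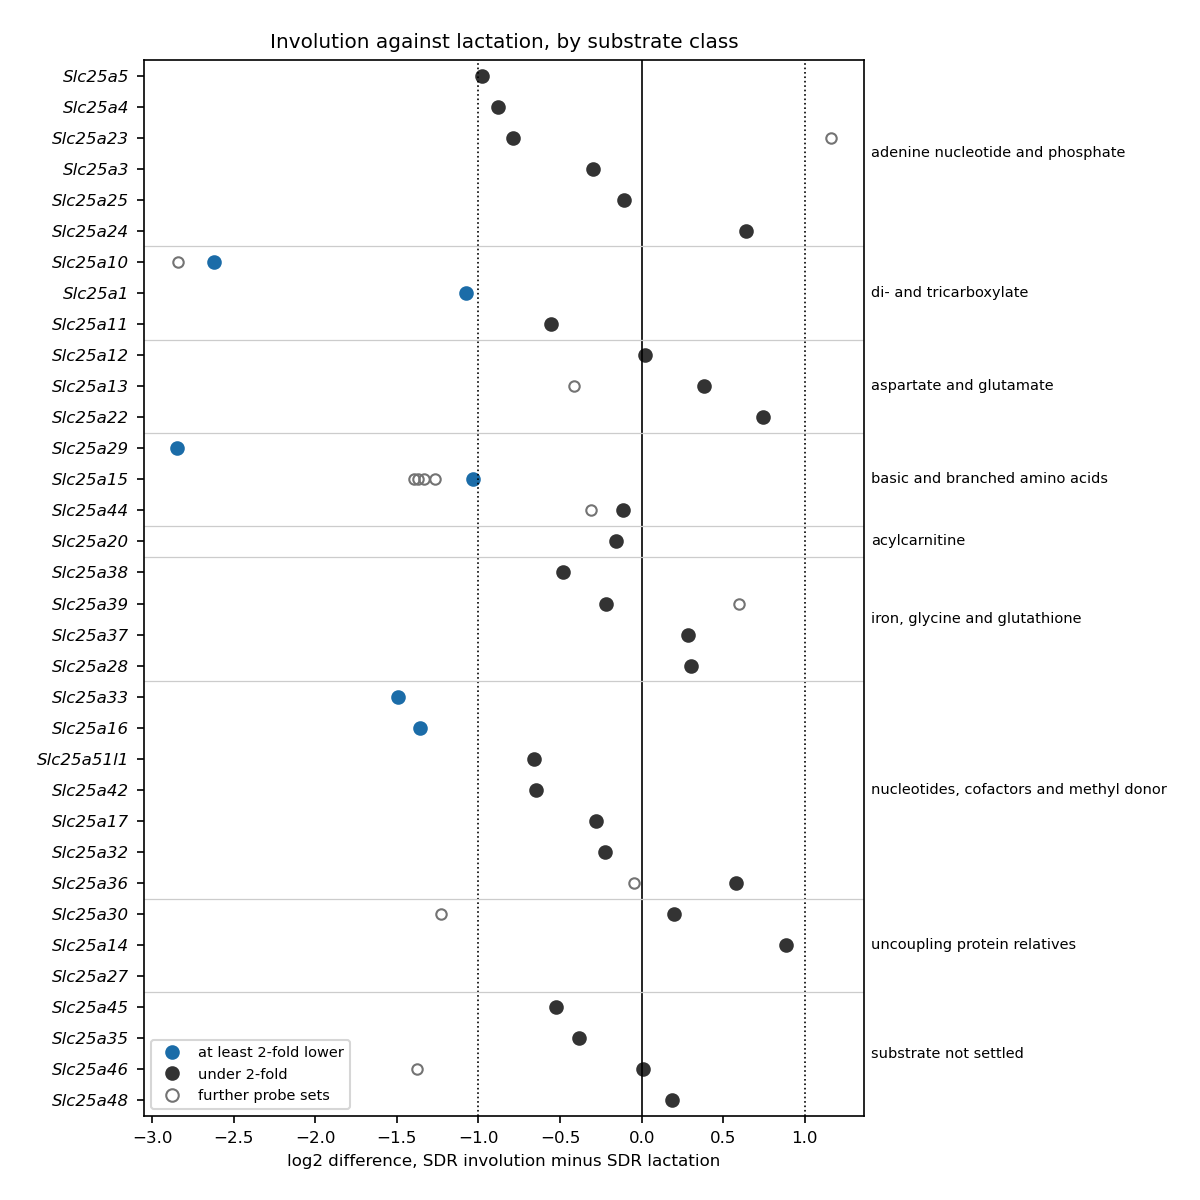
Log2 difference of SDR involution minus SDR lactation for each Slc25a carrier measured, grouped by substrate. Filled circles are the probe set used and open circles are further probe sets, and dotted lines mark 2-fold. The 6 carriers at least 2-fold lower reach from -1.03 (Slc25a15) to -2.85 (Slc25a29), and no filled circle passes 2-fold on the right.

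The other carriers stayed within 2-fold between the SDR stages. Slc25a20, which brings acylcarnitines into the matrix for oxidation, had 1010 in SDR lactation, 625 and 734 in heterozygous and homozygous HHR, and 907 in involution, with both SDR arrays above both HHR arrays. Cpt1a, the transferase that makes these acylcarnitines, had 580 in SDR lactation and 2224 in involution and was 3.84-fold higher, but Acsl1, which activates fatty acids to acyl-CoA, was 7.01-fold lower, and the 10 genes of fatty acid oxidation had a median of 0.19. The iron carriers (mitoferrins) Slc25a37 and Slc25a28 were 1.22-fold and 1.23-fold higher in involution, and the glycine carrier Slc25a38 was 1.39-fold lower. The glutathione carrier Slc25a39 had 3782 in SDR lactation, 3866 and 3721 in heterozygous and homozygous HHR, and 3253 in involution, a nearly level signal, while its weaker probe set, with 128, 120, 104 and 194, was 1.51-fold higher in involution. Tfrc, the transferrin receptor that brings iron into the cell, was 7.13-fold lower. It was among 12 measured genes of heme and iron-sulfur synthesis, of which 3 were at least 2-fold lower and 1 at least 2-fold higher. By any amount 7 of these were lower and 5 higher (median -0.24). Among the relatives of the uncoupling proteins, Slc25a14 had 112, 133, 93.4 and 206 and was 1.85-fold higher in involution, the largest difference upward among the carriers between the SDR stages. Its only probe set, 1387103_s_at, has the suffix of shared probes, and its lactation signals lay near the floor. Slc25a30 had 991, 723, 754 and 1135, but its weaker probe set was 2.34-fold lower in involution. The directions of Slc25a30 and Slc25a39 between the SDR stages turned when the probe sets of each gene were averaged.

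Slc25a46, an outer membrane member tied to mitochondrial shape, had 2038, 1981, 1961 and 2050, an almost level signal. Its further probe set did not follow, with 909 in SDR lactation, 252 and 329 in heterozygous and homozygous HHR, and 351 in involution, so that this transcript region stood highest in SDR lactation by 2.59-fold over involution. Slc25a45 and Slc25a35 were 1.44-fold and 1.30-fold lower in involution. Slc25a17, a peroxisomal carrier of cofactors, had 2830, 2678, 2227 and 2333. Slc25a32, which carries folate or flavin cofactors, was above the floor in SDR lactation alone, at 107, Slc25a27 in heterozygous HHR alone, at 131, and Slc25a48 in the 3 arrays other than SDR lactation, at 104 to 111. Slc25a34 and Slc25a53 were below the floor in all 4 arrays.

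Markers of cell types differed between the same arrays. Of the 10 adipocyte markers on the array 9 were above the floor in each array and Lep, which encodes leptin, in none, and all 9 were lower in involution, 4 of them at least 2-fold (median -0.98). Their summed signal was 36220 in SDR lactation, 22568 and 26100 in heterozygous and homozygous HHR, and 11346 in involution, but the fatty acid binding protein Fabp4 alone gave 23931 of the first sum. In each HHR array 6 of the 9 were higher than in SDR lactation, with medians of 0.17 in heterozygous and 0.28 in homozygous HHR, so the sums and the single markers point opposite ways there. Most measured red cell markers were lower outside SDR lactation. Slc4a1 went the other way in HHR, below the floor in SDR lactation and at 158.5 and 137.9 in heterozygous and homozygous HHR. Hbb, a haemoglobin chain, had 14503 in SDR lactation, 4461 and 6945 in heterozygous and homozygous HHR, and 3425 in involution, and at least 2-fold lower were all 3 measured in involution and 2 of 4 in each HHR array. The sums of the 3 to 4 red cell markers above the floor, of 5 on the array, lay between 4145 and 16458, and Ahsp was below it throughout.

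The luminal markers summed to between 250595 and 266790, but their members differed in involution. Csn2, Csn3, Lalba and Wap made up most of the sum, with 42513 to 60152 each in SDR lactation. The brightest signal of that array was 63449. At least 2-fold higher in involution were the keratins Krt8, Krt18 and Krt19 and the cadherin Cdh1, by 3.46-fold to 4.84-fold. At least 2-fold lower were the mucin Muc1 and the transcription factor Elf5. The markers of dividing cells summed to 8288 in SDR lactation, 33868 and 12342 in heterozygous and homozygous HHR, and 883 in involution. The sum in involution holds the 5 of these 8 markers that were above the floor there. All 8 were at least 2-fold lower in involution and at least 2-fold higher in heterozygous HHR than in SDR lactation. Counted at 2-fold, 3 of 8 myoepithelial markers stood above SDR lactation and 1 below it in homozygous HHR. The counts were 1 and 1 in heterozygous HHR, and 2 and 1 in involution. By any amount 6 of the 8 were higher in homozygous HHR (median 0.99), 7 in heterozygous HHR (0.71) and 6 in involution (0.34). Their sums were 15783 in SDR lactation, 28428 and 28277 in heterozygous and homozygous HHR, and 21797 in involution. The oxytocin receptor Oxtr, below the floor in homozygous HHR and in involution, is left out of the sums of those arrays. Of 10 skeletal muscle markers 2 to 5 were above the floor in each array, Acta1 and Myh1 in every array, while Ckm, Myh4, Mb and Myl1 were below it in all. Ucp1, the brown fat member of the family named outside the prefix, was below the floor in all 4 arrays. So were Dio2, Elovl3 and Prdm16 of the 6 brown adipocyte markers. Of the others, Ppargc1a was above the floor in heterozygous and homozygous HHR alone, at 164 and 107. Cidea had 32754 in SDR lactation, 33493 and 25579 in heterozygous and homozygous HHR, and 3158 in involution, 10.4-fold lower than in SDR lactation. The part of these cell types in the carrier differences was not tested, and in whole tissue fewer cells of a type and less RNA per cell cannot be told apart. Degraded RNA raises the 3′ to 5′ ratio of control probe sets. For Gapdh this ratio was 1.17 in the SDR lactation array, 1.93 in the heterozygous and 2.30 in the homozygous HHR array, and 1.60 in involution. For actin it was 4.60, 7.86, 5.91 and 4.80 in that order, so both ratios were lowest in SDR lactation. The part of RNA quality in the differences from SDR lactation was not tested.

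Homozygous HHR was set against the SDR lactation array to show which carriers differ in the mutant gland. Of 33 measured carriers 3 were at least 2-fold lower and 0 at least 2-fold higher, against 2.72% and 3.77% of 10866 genes. The median log2 difference was -0.22 against 0.02 for all genes, and 23 of the 33 were lower by any amount, against 48.6% of all genes. The lower carriers were Slc25a33 (276 against 704, log2 difference -1.35), Slc25a29 (743 against 1858, -1.32) and Slc25a51l1 (452 against 917, -1.02). A pseudocount in place of the floor left Slc25a51l1 at a log2 difference of -0.89, short of 2-fold. Just short of 2-fold were the mitoferrin Slc25a37, with 271 in SDR lactation and 140 in homozygous HHR and a log2 difference of -0.95, and Slc25a10, with -0.93. The second probe set of Slc25a10 was 2.02-fold lower. Slc25a38 and Slc25a4 were lower by 1.62-fold and 1.64-fold. The citrate carrier Slc25a1 was 1.21-fold lower, Acly had 25003 against 22947, and 2 of the 14 genes of citrate use and fatty acid synthesis were at least 2-fold lower, Scd and Thrsp.

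Heterozygous HHR was set against the SDR lactation array to show which carriers differ when 1 allele is mutant. Of 34 measured carriers 1 was at least 2-fold lower and 0 at least 2-fold higher, against 4.15% and 4.58% of 10876 genes, so the share lower was near that of all genes. The median log2 difference was -0.08 against 0.01 for all genes, and 21 of the 34 carriers were lower by any amount, against 49.0% of all genes. The carrier counted was Slc25a51l1, which had 458.6 against 917.2 and so lay exactly at the threshold. With a pseudocount in place of the floor its log2 difference was -0.87 and 0 carriers were counted. Its signal was 581 in involution, so SDR lactation stood above the other 3 arrays. It is a copy of Slc25a51, a carrier of NAD, and its probe set may collect signal of that gene. The 2 probe sets listed for Slc25a51 under more than 1 gene identifier were left out of the family, and they had 2958 and 1070 in SDR lactation, 2532 and 1353 in heterozygous HHR, 3105 and 1517 in homozygous HHR, and 3628 and 2314 in involution. They were thus not lower in involution, and with their symbols unresolved they were not used further.

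Short of 2-fold, Slc25a29 was 1.86-fold lower in heterozygous HHR and Slc25a24 was 1.79-fold lower. The mitoferrin Slc25a28, with 782 in SDR lactation, 1362 and 901 in heterozygous and homozygous HHR, and 965 in involution, was 1.74-fold higher there, and Slc25a13 was 1.69-fold higher. Both HHR comparisons with SDR and that of involution use the same SDR lactation array, so a low or high reading of it enters all 3. In both HHR arrays the probe sets of Slc25a15 disagreed. One had 231 in SDR lactation, 1007 and 801 in heterozygous and homozygous HHR, and was below the floor in involution. It was 4.36-fold and 3.47-fold higher in the heterozygous and homozygous arrays than in SDR lactation. Another, with 278, 663, 381 and 116 in the same order of arrays, was 2.38-fold and 1.37-fold higher. The remaining further probe sets above the floor were lower, by 1.46-fold to 1.63-fold in heterozygous and 1.68-fold to 1.80-fold in homozygous HHR. The probe set used was 1.08-fold and 1.42-fold lower, so Slc25a15 has no settled direction in HHR, although all its measured probe sets were lower in involution.

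Between the HHR arrays at lactation, 1 of 33 measured carriers was at least 2-fold higher in homozygous HHR and 0 were at least 2-fold lower, against 3.76% and 3.14% of 10877 genes. The median log2 difference was -0.11 against 0.00 for all genes, and 24 of the 33 were lower by any amount, against 49.8% of all genes. The carrier past 2-fold was Slc25a24, 2.24-fold higher, with 1501 in homozygous against 671 in heterozygous HHR. The heterozygous array was the lowest of the 4 for this gene. Markers of fibroblasts, all 8 of them above the floor in each array, summed to 42950 in heterozygous HHR, 66530 in homozygous HHR, 67369 in SDR lactation and 53908 in involution, likewise lowest in heterozygous HHR. The sums of endothelial markers and of macrophage and neutrophil markers were also lowest in heterozygous HHR, at 5486 and 9610. The other marker lists had their lowest sum in another array. By single fibroblast marker, 6 were lower and 2 higher in heterozygous HHR than in SDR lactation. The part of these cell types in the Slc25a24 difference was not tested. The carriers Slc25a38, Slc25a33 and Slc25a37 were 1.68-fold, 1.65-fold and 1.62-fold lower in homozygous HHR.

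**Figure D3:**
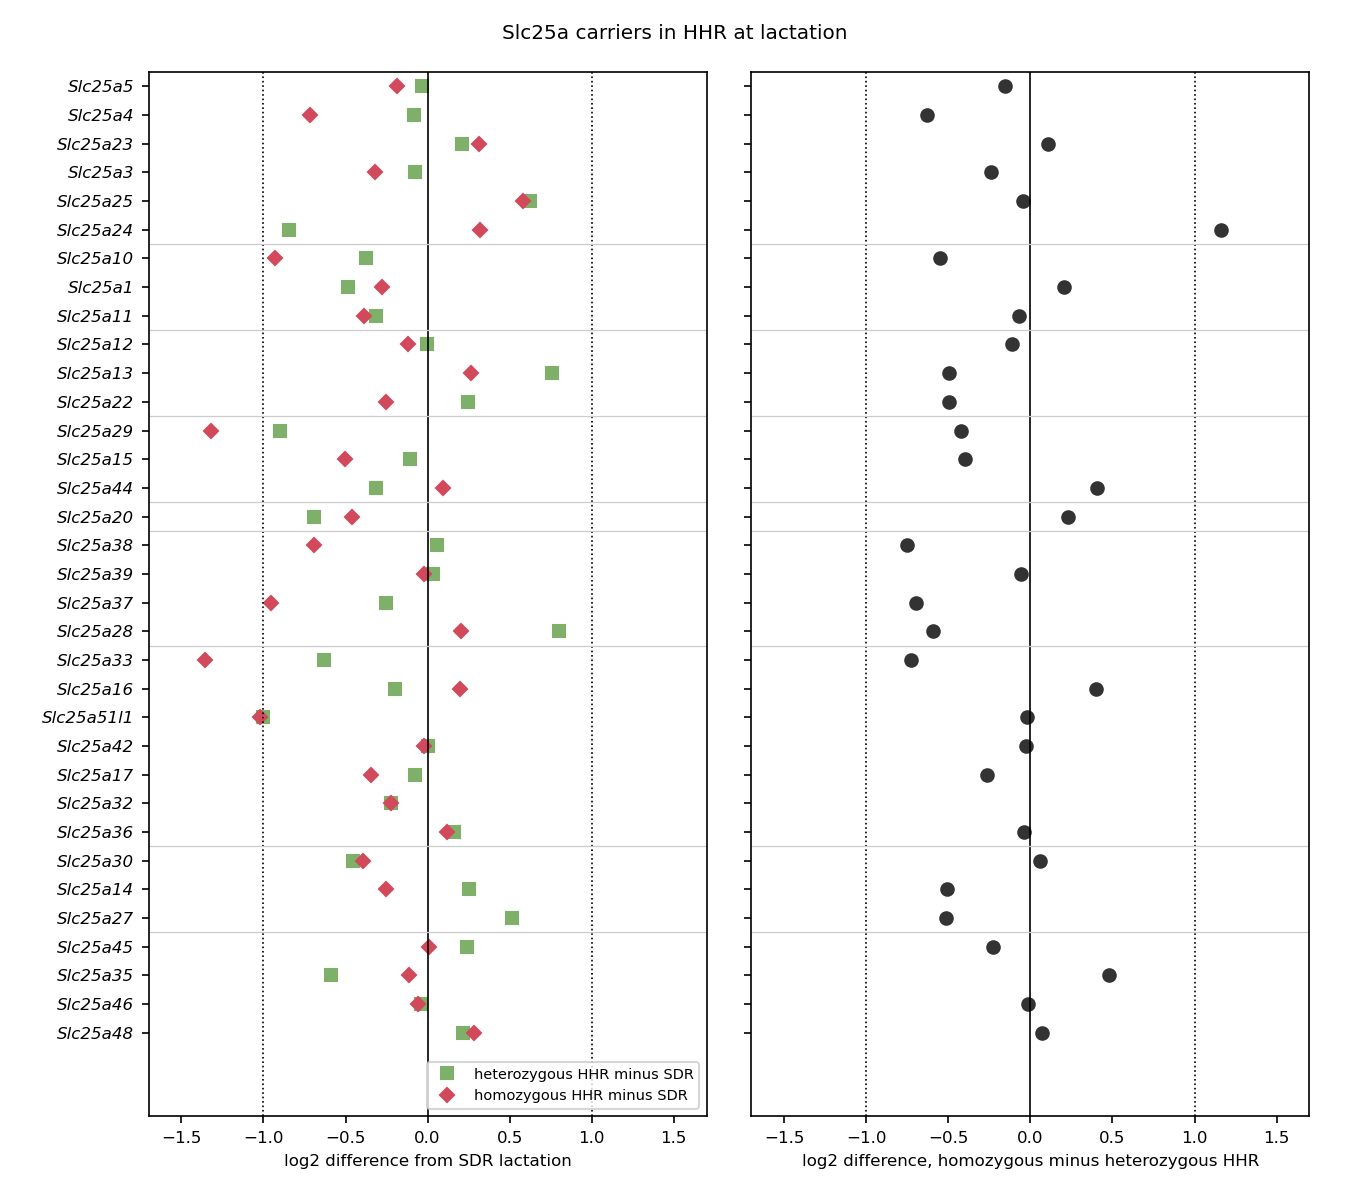
Log2 differences of the Slc25a carriers in HHR at lactation, with heterozygous and homozygous HHR minus SDR on the left and homozygous minus heterozygous HHR on the right. Dotted lines mark 2-fold. Slc25a29, Slc25a33 and Slc25a51l1 reach -1.32, -1.35 and -1.02 in homozygous HHR, and Slc25a24 reaches 1.16 on the right.

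Across the 4 arrays, the highest signal was in SDR lactation for 14 of the 34 carriers above the floor, against 22.4% of all genes, and in involution for 8, against 36.4%. It was in heterozygous HHR for 8, against 23.8%, and in homozygous HHR for 4, against 17.4%. The lowest signal was in involution for 14 of the 32 carriers with a single lowest array, against 30.9% of all genes, and in homozygous HHR for 9, against 18.5%. It was in SDR lactation for 4, against 25.6%, and in heterozygous HHR for 5 (15.6% of the 32), against 2532 of the 10121 genes with a single lowest array. SDR lactation was thus the top array more often, and involution the bottom array more often, among carriers than among all genes, as a description without a test. In the probe sets used, Slc25a10, Slc25a29 and Slc25a33 had the same order. From high to low it was SDR lactation, heterozygous HHR, homozygous HHR and involution. Slc25a4, Slc25a5, Slc25a11 and Slc25a15 had this order as well. Some further probe sets of Slc25a15 did not, being higher in both HHR arrays than in SDR lactation. The share of all genes with this order was not computed. Steps within this order were often small, such as 1.02-fold between SDR lactation and heterozygous HHR for Slc25a5, and without replicates such neighbours cannot be ranked.

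Genes that import carriers into the inner membrane or control mitochondrial transcription had medians nearer 0 in involution than the carriers. Of 11 import genes 0 were at least 2-fold lower and 1 was at least 2-fold higher, Tomm40, a pore of the outer membrane, at 3.05-fold (median 0.02). Of 10 measured controllers of mitochondrial genes 2 were at least 2-fold lower and 0 at least 2-fold higher (median -0.11), and these were the transcription factor Nrf1, with 446 against 126 and 3.54-fold lower, and Pprc1, a coactivator of the PGC-1 family, just past 2-fold. The family members named outside the prefix, Ucp2, Ucp3, Mtch1 and Mtch2, all lay within 2-fold (median 0.16), and Ucp2 was higher in involution by a log2 difference of 0.77.

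**Figure D4:**
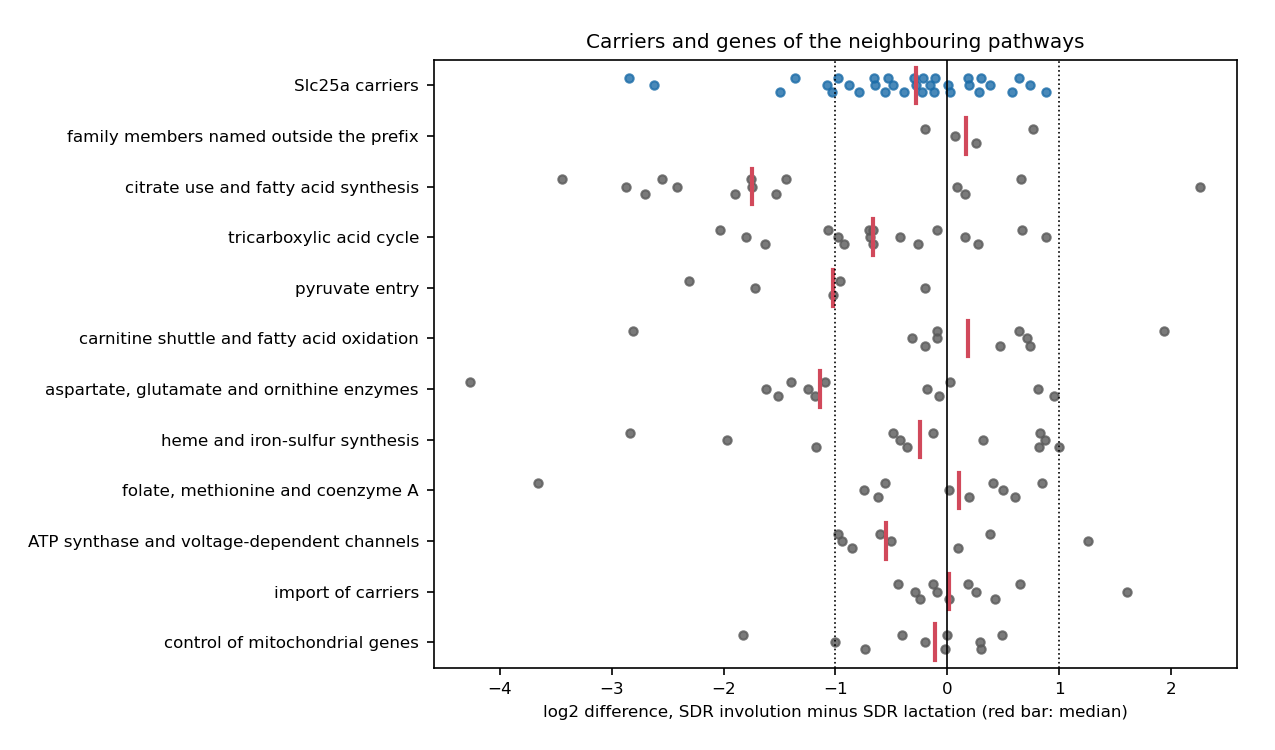
Log2 difference of SDR involution minus SDR lactation for the Slc25a carriers and for genes of neighbouring pathways, with 1 point for each gene and a red bar at the median. The medians are -0.28 for the carriers, -1.75 for citrate use and fatty acid synthesis, -1.02 for pyruvate entry and 0.02 for carrier import.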

How the data were processed

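RNA had been turned into biotinylated cRNA, per the labels' protocols, and the deposited table holds a linear intensity for each probe set, made by MAS5 (per the submitters' processing notes, version not given in the sources used here). The values show how the authors scaled the arrays, as the mean without the lowest and highest 2% was near 500.2 in every array. Of 31099 probe sets, 57 controls were set aside, and 20826 others had 1 symbol in the platform annotation. Signals under the pooled 40th percentile (91.5) were raised to it before log2. For each gene the brightest probe set by mean log2 was used, and the 40 carriers had 58 probe sets. A carrier was measured in a pair when either array exceeded the floor, and past the threshold at 2-fold. Folds that involve a floored signal are lower bounds. Sums of markers leave out signals under the floor. The number of arrays limits the precision, and no test was made. Numerical steps ran in Python 3.11.15 with pandas 2.3.3 and were tested on simulated data.

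Carriers, the 9 substrate classes, the 22 gene lists and the motifs were chosen with earlier results of these data known, and the motifs and promoters shown after the signals were seen. Values in all arrays were given for Slc25a1, for carriers at least 2-fold different in any comparison, for those with a further probe set opposed past 1.5-fold and for the brightest of each class, and further carriers were added. Genes of the lists were the up to 5 brightest past 2-fold and up to 2 others, where set beside a carrier of the same step, and Idh1 was added. Alternatives were median centring, quantile normalization, floors at the 25th and 55th percentile, the floor as a pseudocount, averaging a gene's probe sets, probe sets without a shared-probe suffix, and a 3-fold threshold.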

Additional observations from a re-analysis of the deposited data

How the results depend on the processing

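With the floor at the 25th percentile (42.7), 1 carrier was at least 2-fold higher in homozygous HHR than in SDR (Slc25a48) and 2 in heterozygous HHR (Slc25a27 and Slc25a48), where there had been 0. With a pseudocount 0 carriers were lower in heterozygous HHR instead of 1. At a 3-fold threshold 2 carriers were lower in involution (Slc25a10 and Slc25a29), 0 lower in homozygous HHR, 0 lower in heterozygous HHR and 0 higher in homozygous than in heterozygous HHR. Under all other settings run the counts of carriers stayed within 1.5 times the values given. The median of the carriers in involution was -0.42 with median centring, against -0.28. For the carriers at least 2-fold different in a comparison, those with opposed probe sets and Slc25a1, 332 of 336 recomputed differences kept their side of 2-fold and 4 fell short of it, namely Slc25a1 in involution with quantile normalization (-0.96), and with the pseudocount Slc25a15 in involution (-0.92) and Slc25a51l1 in homozygous (-0.89) and heterozygous HHR (-0.87). Many of the 336 could not change. The floors at the 25th and 55th percentile lay below every signal used for these carriers, and none of the probe sets used for these carriers had a shared-probe suffix. Each of these settings thus gave 48 unchanged values. Averaging also changes nothing for a carrier with 1 probe set. The sign was kept in 325 of the 336 and turned in 11, all of them short of 2-fold before and after. Averaging a gene's probe sets gave 8 of these. In involution it moved Slc25a23 from -0.79 to 0.12, Slc25a30 from 0.20 to -0.52, Slc25a39 from -0.22 to 0.19 and Slc25a46 from 0.01 to -0.68. It moved Slc25a15 from -0.51 to 0.02 in homozygous and from -0.11 to 0.34 in heterozygous HHR. Median centring turned Slc25a46 in involution to -0.14, and the other 4 turned values were smaller than 0.2 on either side. The cause was not tested. No paired analysis was possible because each group has 1 array, and no array could be left out. Signals near the floor limit what can be seen of Slc25a14, Slc25a27, Slc25a32 and Slc25a48.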
